A study of Drosophila melanogaster with 2 samples.

Results

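The genes described here are the cuticle protein genes of Drosophila melanogaster, chosen by symbol alone: the Cpr, Ccp84, Lcp, Edg, Acp, Pcp and Twdl families as they are named in the Ensembl BDGP6.54 annotation. They numbered 130 of the 13968 protein-coding genes on nuclear chromosomes. By family there were 70 Cpr genes, 25 Twdl (Tweedle) genes, 15 Lcp (larval cuticle protein) genes, 7 Ccp84 genes, 3 Edg (ecdysone-dependent) genes, the pupal cuticle gene Pcp, the adult cuticle gene Acp65Aa and 8 further Acp genes. Those 8 (Acp24A4, Acp26Ab, Acp26Aa, Acp29AB, Acp33A, Acp54A1, Acp76A and Acp98AB) are accessory gland genes, which encode proteins of the seminal fluid and not of the cuticle. Their symbols match the rule, so they are counted among the 130 cuticle protein genes below. The main counts are given with and without them, over 130 and 122 genes.

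The insect cuticle is an apical extracellular matrix that epidermal cells secrete, built of chitin fibres and of proteins that bind them or fill the space between them. Most Cpr, Lcp and Ccp84 proteins carry the Rebers and Riddiford consensus, a chitin-binding domain, while Tweedle proteins form a separate family that shapes the body wall. The genes are short, many arose by tandem duplication, and epidermal cells transcribe them in bursts around the molts under the control of ecdysone and the nuclear receptors downstream of it.

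Chromatin immunoprecipitation sequencing (ChIP-seq) recovered DNA bound by Unc-4 fused to eGFP. Unc-4 is a homeodomain transcription factor known from neurons. There was 1 group of 2 biological replicates: transgenic flies of strain unc-4-GFP that express the unc-4-eGFP fusion, collected as whole embryos aged 6 to 18 h, with chromatin sonicated to 200 to 800 bp. The fusion was recovered with an antibody to GFP per the sample descriptions, although the antibody label reads unc-4, and the promoter that drives the fusion is not given in the sources used here. Whole embryos mix all cell types, and epidermal cells, the source of cuticle, were not separated from neurons or other cells. No second genotype or age was compared, so the comparisons are those of cuticle protein genes with all coding genes, and of clustered with isolated cuticle protein genes.

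The measurement is a list of peaks, regions enriched in the immunoprecipitate, each with a summit, the base where enrichment is highest, and a signal value. The scale of the authors' signal is not stated, so it is compared only within a list. The authors kept peaks by the irreproducible discovery rate (IDR), which scores how well a peak's rank repeats between replicates or subsamples. The pooled thresholded list, from both replicates, held 4899 nuclear peaks with a median signal of 107. The lists of replicate 1 and replicate 2 alone held 3457 and 2960 peaks with median signals of 116 and 63.4, the conservative list held 4474 peaks, and the pooled ranked list before thresholding held 46847. Read depth is unknown.

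Around cuticle protein genes, the DNA at the gene's own start and the DNA under the nearest summit are shown side by side for 5 genes, since nearly every summit found near these genes lay at another gene. For each, the 100 bases before the annotated start are followed by 101 bases around a summit, or by 30 bases around the letters of interest where the summit lies in transcribed sequence. All were read from the RefSeq sequence of assembly dm6 (Release 6 plus ISO1 MT), written 5′ to 3′ on the strand named. Capitals mark TATAAA, the core of the TATA box, and TATCGA, the core of the DNA replication-related element (DRE), each read on either strand, so that TTTATA and TCGATA are the same runs on the other strand.
Before the start of Pcp (chr2L:7021582-7021681, plus strand): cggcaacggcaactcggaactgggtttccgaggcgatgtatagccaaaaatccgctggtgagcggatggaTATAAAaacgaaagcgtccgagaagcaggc
Summit near Pcp, at the start of CG31908 (chr2L:7027370-7027470, minus strand): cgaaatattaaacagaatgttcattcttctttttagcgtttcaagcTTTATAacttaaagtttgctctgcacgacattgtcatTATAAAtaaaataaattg
Before the start of Cpr31A (chr2L:10054113-10054212, plus strand): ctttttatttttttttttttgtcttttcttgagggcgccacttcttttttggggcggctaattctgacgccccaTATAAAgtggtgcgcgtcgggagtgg
Summit near Cpr31A, at the start of Pen (chr2L:10056818-10056918, plus strand): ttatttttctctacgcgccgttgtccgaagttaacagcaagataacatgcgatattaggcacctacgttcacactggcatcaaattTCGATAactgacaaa
Before the start of Cpr67B (chr3L:9404697-9404796, plus strand): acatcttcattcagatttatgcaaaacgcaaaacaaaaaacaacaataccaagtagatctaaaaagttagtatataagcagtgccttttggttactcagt
Site near Cpr67B, at the start of eIF4E1 (chr3L:9402467-9402496, minus strand): cctgttcaacaaTCGATAgctgccttcggt
Before the start of Cpr73D (chr3L:16957690-16957789, minus strand): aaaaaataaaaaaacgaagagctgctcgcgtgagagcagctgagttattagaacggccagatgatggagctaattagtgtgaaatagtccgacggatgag
Site in Cpr73D, at the start of Ogdh (chr3L:16955424-16955453, plus strand): ctgtaaaaataaTCGATAtctggcacaaaa
Before the start of Cpr65Ec (chr3L:7093104-7093203, plus strand): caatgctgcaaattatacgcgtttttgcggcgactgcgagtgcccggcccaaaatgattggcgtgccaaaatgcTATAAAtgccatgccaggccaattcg
Summit beside Cpr65Ec, between Cpr65Ec and form3 (chr3L:7094175-7094275, plus strand): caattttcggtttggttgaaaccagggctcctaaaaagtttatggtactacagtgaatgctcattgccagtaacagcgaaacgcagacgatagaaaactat
Pcp, Cpr31A and Cpr65Ec have TATAAA shortly before their starts. The summits at Pen, eIF4E1 and Ogdh have TATCGA on one strand. The summit at CG31908 instead has TATAAA and also TTTATA, the same run on the other strand. The sites of 30 bases at eIF4E1 and Ogdh were cut around TATCGA, so they hold it by choice. The windows before Cpr67B and Cpr73D and the summit at form3 held neither run. Among summits not shown, those at CG7083, CG4022 and CG11309 and that by Ccp84Aa held neither run, and that at Pex2 held TATCGA. The printed examples do not measure how often either run occurs. Runs were searched only as written, so a variant such as TATATAAG, which stands before Cpr67B, was not counted.

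The starts of the cuticle protein genes were almost free of summits. Of the 130 genes, 1 had a pooled summit within 1 kb of its own start, or 0.769% (95% Wilson interval 0.136 to 4.23), against 34.6% of all coding genes. In the gene plus 5 kb on either side, 11 of the 130 genes held a summit, or 8.46% (4.79 to 14.5), against 57.1% of all coding genes. No cuticle protein gene had the start nearest to any summit: the count was 0 of 130, which with its interval allows up to 2.87%, whereas the start of 26.0% of all coding genes was nearest to at least 1 summit. Without the accessory gland genes the shares of 122 genes were 0.820% within 1 kb, 9.02% in the window and 0% for the nearest start. These intervals cover counting error only, and neighbouring genes share windows, so genes are not independent.

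Cuticle protein genes are short, with a median length of 926 bp against 2164 bp for all coding genes. Among the 6532 coding genes shorter than 2 kb, whose median was 1128 bp, 26.3% had a summit within 1 kb, 47.4% had one in the window, and 16.4% had the nearest start. These shares of short genes also lie above the intervals of the cuticle protein genes. The windows of cuticle protein genes held on average 3.05 starts of other coding genes, against 2.94 for all coding genes, but many of these starts belonged to fellow cuticle protein genes: without them the means were 1.22 and 2.91. Where the window held at least 1 other coding start of any kind, 11 of 123 cuticle protein genes had a summit (8.94%, interval 5.07 to 15.3), against 62.4% of the 12508 remaining coding genes with such a window. Where it held at least 1 start of a coding gene that is no cuticle protein gene, 10 of 71 had a summit (14.1%, interval 7.83 to 24.0), against 62.5% of 12495. Where it held no such start, other cuticle protein genes aside, 1 of 59 had a summit (1.69%), against 12.4% of 1343. The share was lower for cuticle protein genes in each of these comparisons.

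**Figure D1:**
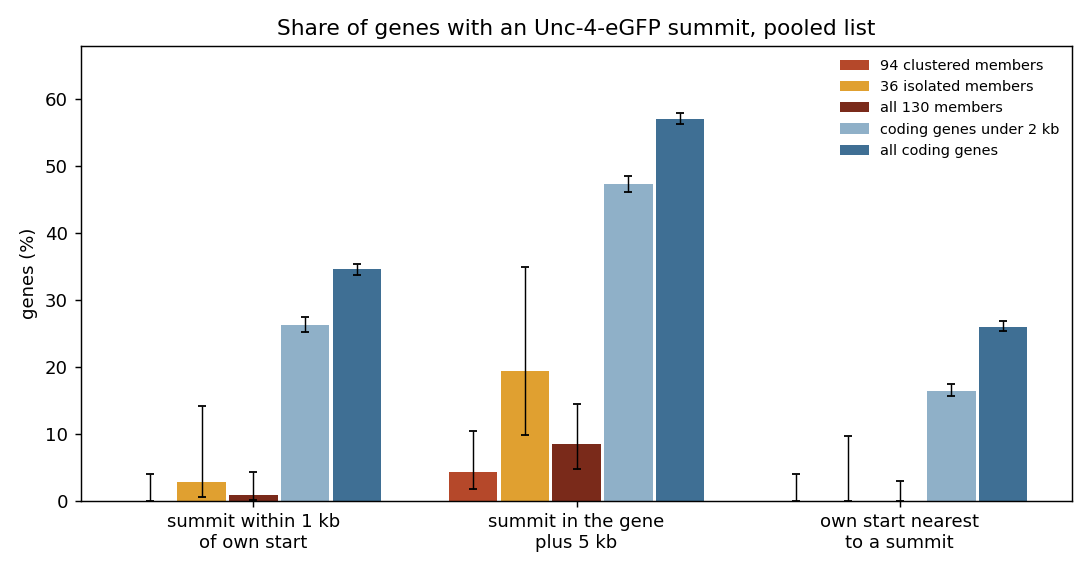
Share of genes (%) with a pooled summit by 3 measures, for clustered cuticle protein genes, isolated ones, all 130, coding genes under 2 kb and all coding genes; whiskers are 95% Wilson intervals, which cover counting error only. All 3 sets of cuticle protein genes lie below both sets of coding genes in every measure, and the isolated genes reach 19.4% in the gene plus 5 kb.

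The same scarcity was seen in the thresholded list of each replicate. In the list of replicate 1 alone, 8 of 130 cuticle protein genes had a summit in the window, against 49.5% of coding genes. In that of replicate 2 alone, 6 of 130 did, against 46.1%. In the conservative list 13 of 130 did, against 54.8%. In none of these 3 lists was a cuticle protein gene's start the nearest to a summit. Before thresholding the replicates differed: the ranked list of replicate 1 had a summit in the window of 57 of 130 cuticle protein genes (43.8%), against 80.4% of coding genes, and that of replicate 2 in 116 of 130 (89.2%, 82.7 to 93.5), against 90.9%. In the ranked list of replicate 2 the window share of the cuticle protein genes was thus not detectably lower. That list held 45920 peaks, and that of replicate 1 held 21280.

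Distances gave the same order. The start of a cuticle protein gene lay a median of 19674 bp from the nearest pooled summit (quartiles 11391 and 31844 bp), against 4605 bp for coding genes (157 and 19858 bp). Without the accessory gland genes the median was 20891 bp. For 103 of the 130 genes, or 79.2%, the nearest summit was more than 10 kb away, against 37.2% of coding genes and 43.1% of short ones. None of the 130 lay within 100 bp of a summit, whereas 20.2% of coding genes did. The coding genes thus had many starts directly at summits, while the nearest pair of a cuticle protein gene and a summit was 998 bp apart. The 5 starts farthest from any summit were those of Lcp4 at 101431 bp, Lcp3 at 99094 bp, Lcp2 at 98569 bp and Lcp1 at 95027 bp, which form 1 cluster of larval cuticle genes on 2R, and of the accessory gland gene Acp33A at 74352 bp.

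**Figure D2:**
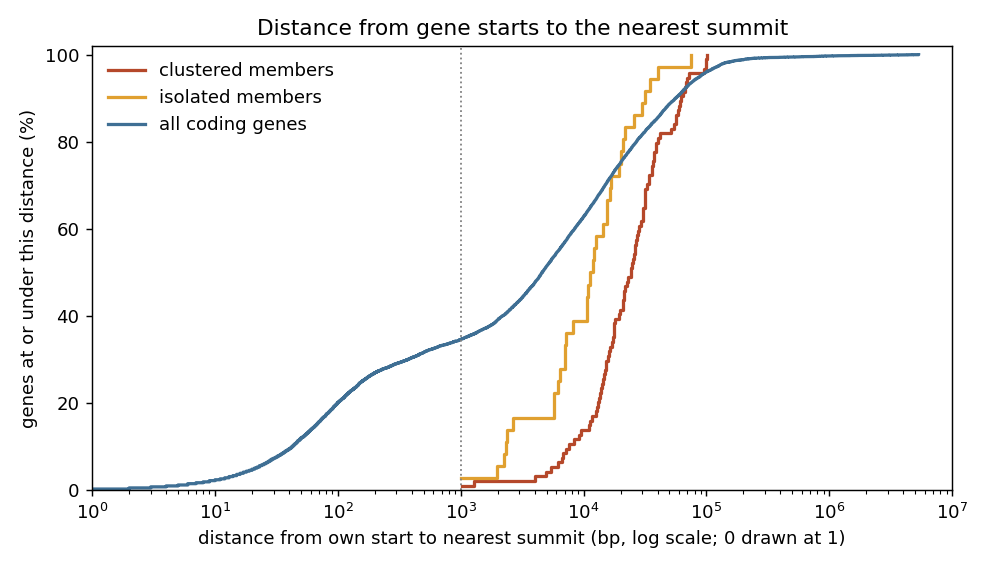
Cumulative share of genes (%) by the distance from the gene's own start to the nearest pooled summit (bp, log scale), for clustered and isolated cuticle protein genes and all coding genes; the dotted line marks 1000 bp. The curves of cuticle protein genes begin near 1 kb, with medians of 24336 bp for clustered and 11630 bp for isolated genes, against 4605 bp for coding genes.

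A smaller share of the genes in clusters than of the genes that stand alone had a summit nearby. A cluster was defined as at least 2 cuticle protein genes on a chromosome with gaps of at most 10 kb, which gave 94 genes in 19 clusters and left 36 isolated genes. The cluster of Acp26Ab and Acp26Aa holds accessory gland genes only. A summit lay in the window of 4 of 94 clustered genes (4.26%, 1.67 to 10.4) and of 7 of 36 isolated genes (19.4%, 9.75 to 35.0), a difference of -15.2 percentage points (95% interval built from the Wilson intervals, -31.0 to -3.69, counting error only). Without the accessory gland genes the counts were 4 of 92 clustered genes (4.35%) and 7 of 30 isolated genes (23.3%). Both classes lay below the 57.1% of all coding genes. In the ranked list of replicate 2 the order was the other way round, with 87 of 94 clustered genes (92.6%) and 29 of 36 isolated genes (80.6%), a difference of 12.0 percentage points, whereas in that of replicate 1 the counts were 32 of 94 (34.0%) and 25 of 36 (69.4%). The lower share of clustered genes therefore holds for the thresholded lists and not for every ranked one. With 1 group of 2 replicates and genes that share windows, the difference was not tested.

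The 2 classes also differed in surroundings. The windows of clustered genes held on average 3.32 starts of other coding genes, against 2.36 for isolated genes, but when starts of cuticle protein genes were left out the mean was 0.777 for clustered and 2.36 for isolated genes. Where at least 1 start of a gene outside the families was present, 3 of 41 clustered genes had a summit (7.32%, 2.52 to 19.4) and 7 of 30 isolated genes did (23.3%, 11.8 to 40.9). Those 2 intervals overlap. Where there was none, fellow cuticle protein genes aside, 1 of 53 clustered genes and 0 of 6 isolated genes had a summit. By place in the cluster, 4 of 38 genes at the first or last place had a summit in the window, and 0 of 56 interior genes did. No summit lay inside any cluster, so an interior window could hold one only where its 5 kb flank passed the cluster's end. These counts are therefore not separate from that absence. The summits in windows of clustered genes were thus all beside a gene at the end of its cluster.

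By family, the genes with a summit in the window were 9 of 70 Cpr genes, 1 of 7 Ccp84 genes and Pcp. The count was 0 for the 25 Tweedle genes, the 15 Lcp genes, the 3 Edg genes, Acp65Aa and the 8 accessory gland genes. The families differ in how far they are clustered, so these counts are not a comparison of protein types.

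The windows of the 11 genes held 15 distinct summits, 4 around clustered and 11 around isolated genes. Their pooled signals spanned 55.0 to 488 with a median of 108, close to the 107 of all nuclear peaks, and 8 of them were above that median. Of the 15 summits, 13 lay within 100 bp of the transcript start of another gene, against 61.3% of all nuclear summits. Of the 15, 5 passed the threshold in both replicates' own lists, 9 did in replicate 1 and 7 in replicate 2, and 14 were in the conservative list. The replicates' own lists held 3457 and 2960 peaks, fewer than the 4899 of the pooled list. The same shares over all pooled summits were not computed.

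The strongest summit near a cuticle protein gene lay inside Cpr73D, a gene of the Rebers and Riddiford family on 3L. Its pooled signal was 488, with 328 in replicate 1 and 151 in replicate 2. It lay 2253 bp inside Cpr73D and 64 bp from the start of Ogdh, which encodes the oxoglutarate dehydrogenase of the citric acid cycle and runs on the opposite strand. The base falls in the annotated 5′ UTR of both genes, and its DNA, shown above, held TATCGA.

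Cpr60D, on 2R, was the single gene with a summit within 1 kb of its own start, 998 bp before it. That summit had a pooled signal of 367, with 250 in replicate 1 and 117 in replicate 2. It lay 6 bp from the start of ND-19, which encodes a subunit of respiratory complex I. In the list of replicate 2 the summit of the overlapping peak fell outside 1 kb. Just outside the limit stood Cpr65Ec at 1021 bp. The window of Cpr60D held 2 further summits, at CG3663 and at CG4806, each within 100 bp of that gene's start. The one at CG3663 had a pooled signal of 99.0, with 53.3 and 29.6 in the ranked lists of replicates 1 and 2, and the one at CG4806 had 74.7, with 47.8 and 28.9. This window held more summits than that of any other cuticle protein gene.

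Pcp, the pupal cuticle protein gene, had a summit 5738 bp after its start. Its pooled signal was 277, with 181 in replicate 1 and 87.2 in replicate 2. It lay 31 bp from the start of CG31908. Cpr67B had a summit 2349 bp before its start with a pooled signal of 250, and with 187 in replicate 1 and 67.8 in replicate 2. That summit lay 12 bp from the start of eIF4E1, the cap-binding translation initiation factor. The second summit of Cpr67B, 37 bp from the start of CG4022, had the lowest pooled signal of the 15, 55.0, and passed neither replicate's own threshold (31.0 and 28.7 in the ranked lists of replicates 1 and 2).

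The remaining isolated genes repeated this arrangement at lower signal. The summit after Cpr31A lay 32 bp from the start of Pen, an importin alpha of nuclear import, with a pooled signal of 179. It had 137 in replicate 1 and 36.0 in the ranked list of replicate 2, where it did not pass the threshold. The summit before Cpr57A lay 17 bp from the start of BORCS7, a subunit of a lysosome-positioning complex, with a pooled signal of 77.3 and ranked signals of 48.3 and 33.3 in replicates 1 and 2. Neither passed its replicate's threshold. Of the 2 summits after Cpr66Cb, the first lay 9 bp from the start of Pex2, a peroxisome biogenesis gene, with a pooled signal of 67.0 and ranked signals of 40.9 and 27.1 in replicates 1 and 2. The second lay 56 bp from that of CG7083, in an intron of Prim1, with a pooled signal of 77.3 and 66.4 in replicate 1. It had no counterpart in the ranked list of replicate 2 and was the 1 summit absent from the conservative list. In all 7 isolated genes the starts at the summits belonged to neighbours.

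Among the 4 clustered genes, Cpr47Eg and Cpr78Cc showed the same arrangement. The summit by Cpr47Eg lay 1281 bp before its start and 1 bp from the start of Vhl, the von Hippel-Lindau ubiquitin ligase gene, with a pooled signal of 109. It had 80.2 in replicate 1 and 32.9 in the ranked list of replicate 2, below that list's threshold. The summit by Cpr78Cc lay 73 bp from the start of CG11309 with a pooled signal of 108, and with ranked signals of 55.3 in replicate 1 and 47.3 in replicate 2. The start at each of these summits was thus again that of a neighbour.

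The other 2 summits were not at a start. The summit by Cpr65Ec had a pooled signal of 191, with 147 in replicate 1 and 65.8 in replicate 2, and lay in intergenic sequence 1021 bp from the start of Cpr65Ec and 593 bp from that of form3, a formin that assembles actin. The summit by Ccp84Aa lay 4991 bp from its start in an intron of the Hox gene pb, since the Ccp84 cluster sits within the Antennapedia complex. Its pooled signal was 67.1, with 34.9 and 35.3 in the ranked lists of replicates 1 and 2, and it passed neither replicate's own threshold. The nearest start was that of a transposable element of the INE-1 family at 3017 bp, and the nearest coding start was that of Ccp84Aa itself. Among all nuclear summits, 62 had the start of a transposable element as the nearest one.

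**Figure D3:**
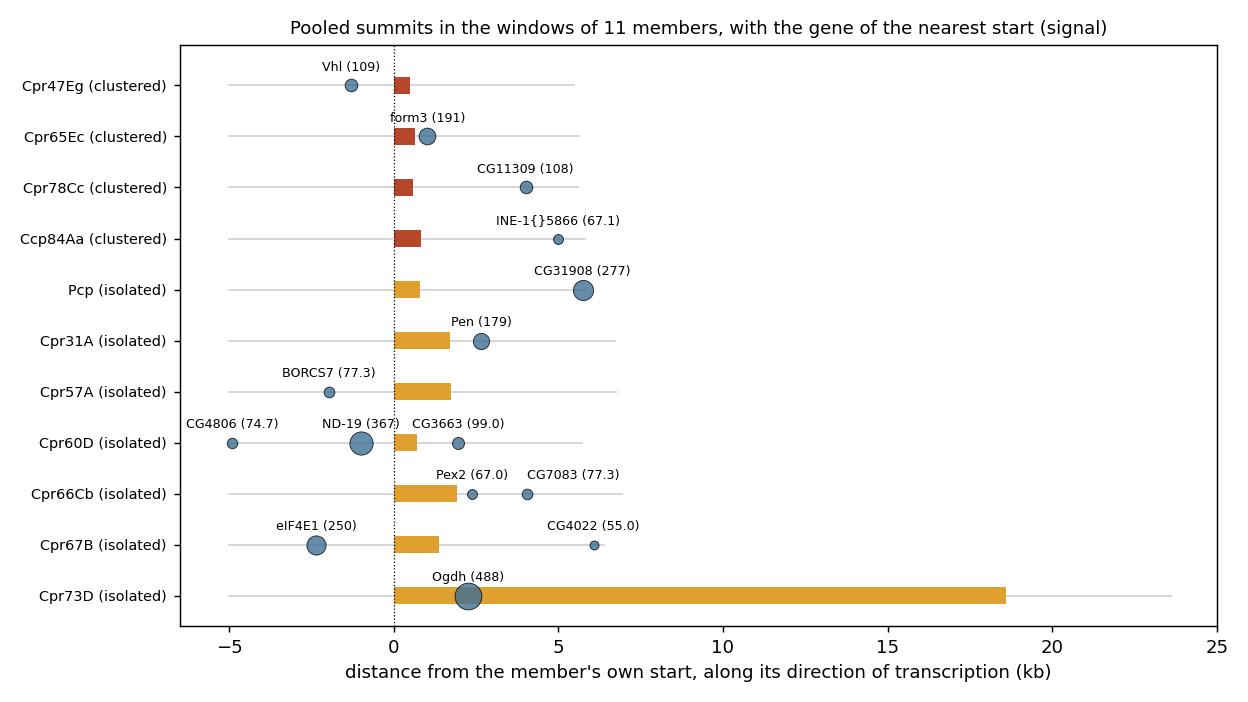
Position of the 15 pooled summits in the windows of 11 cuticle protein genes, as distance from the gene's own start along its direction of transcription (kb); bars are the genes, grey lines the windows, and each circle is a summit with an area proportional to its signal, labelled by the gene of the nearest start and the signal. No circle stands at position 0, and the largest, signal 488 at Ogdh, lies within Cpr73D.

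Isolated genes with no summit in the window, taken in symbol order without the accessory gland genes, were Cpr100A, 12711 bp from the nearest summit, Cpr11A at 16537 bp and Cpr11B at 29918 bp. They are 3 of the 29 isolated genes with none.

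No pooled summit lay inside any of the 19 clusters, which together span 278 kb. The genome as a whole held 35.6 summits per Mb, a density that would place 9.89 in that span. A count of 0 allows up to 10.8 summits per Mb (3 counts over the span). Both values take summits as evenly and independently spread along the DNA, but 61.3% of all nuclear summits lay within 100 bp of a start. They are therefore no test of the absence. The lists of replicate 1, replicate 2 and the conservative list also had 0 inside. Of the 19 clusters, 8 enclosed starts of other coding genes, 12 in all, and the same absence of summits inside covers those starts. The stretch without a summit around a cluster ran from 18.4 kb at Cpr78Ca to Cpr78Cc to 381 kb at Cpr76Ba to Cpr76Bd, with a median of 87.1 kb. The 2 clusters at 49A share a stretch, so the stretches are not separate counts. Around the starts of the 130 genes the median summit-free stretch was 79.0 kb, against 39.2 kb around all coding starts. Genes of a cluster share its stretch, so this median counts the same stretch repeatedly. The value of 79.0 kb equals the stretch around the largest cluster, which counts for each of its 18 genes. For isolated genes alone the median lay between 39.2 and 79.0 kb, nearer to that of coding starts.

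The largest cluster runs from Lcp65Ag3 to Cpr65Az on 3L and holds 18 larval and other cuticle genes in 31.2 kb. No summit lay within a stretch of 79.0 kb around it. The nearest on either side were at loj (signal 230), 35.4 kb to the left, and at fmt (signal 131), 12.4 kb to the right. Among the starts of the 130 genes, those with the most repeated sequence lay in this cluster. In it, 8 starts had at least 20% of the 32-base runs within 500 bp present elsewhere in the genome, with 90.1% at Lcp65Ab1 and Lcp65Ab2. Ccp84Aa and Ccp84Ab also passed 20%. Whether reads could be placed there was not tested. The other 120 genes were under 20%, and the median over all 130 was 0%. Sequence farther from the starts was not searched for repeats, and the same share over all coding starts was not computed.

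The 12 Tweedle genes from TwdlM to TwdlD on 3R span 21.9 kb, in a summit-free stretch of 158 kb between a summit nearest to scrib (signal 3.76) and one at CG6420 (signal 450). The 8 genes from Edg84A to Ccp84Aa span 20.5 kb on 3R in a stretch of 36.4 kb, whose ends lie nearest to 2 INE-1 elements (signals 68.4 and 67.1). The 7 genes from Cpr47Ea to Cpr47Eg on 2R span 26.7 kb, and the summit at Vhl stands 1.28 kb beyond the last. That cluster encloses the starts of CG13223 and TpnC47D, a muscle troponin C gene, in the same span without a summit. Next in size are clusters of 4 genes, among them Lcp1 to Lcp4 with a stretch of 264 kb.

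**Figure D4:**
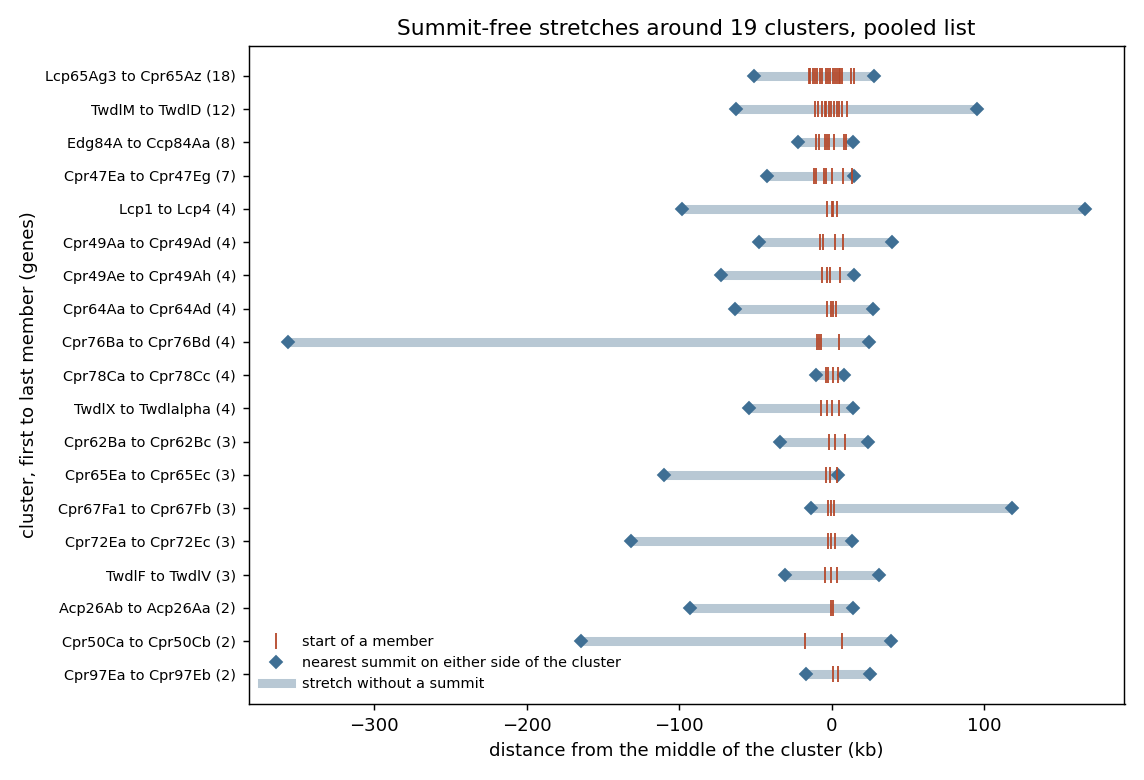
The 19 clusters of cuticle protein genes, each drawn around its middle (kb): ticks are the starts of its genes, the grey bar is the stretch without a pooled summit, and diamonds are the nearest summits on either side. No diamond lies between the first and the last gene of its cluster, and the stretches run from 18.4 to 381 kb. The cluster from Acp26Ab to Acp26Aa holds accessory gland genes only.

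Weak peaks below the threshold were listed at some of these starts. In the pooled ranked list, which holds peaks of every IDR, 41 of 130 cuticle protein genes had a summit within 1 kb, against 65.0% of coding genes, and 48 of 130 had the start nearest to one, against 66.0%. In the gene plus 5 kb 87 of 130 had one, against 85.1%. These counts depended on the replicate. Within 1 kb there were 18 of 130 in the ranked list of replicate 1, against 57.8% of coding genes, and 57 of 130 in that of replicate 2, against 69.8%. For the nearest start there were 30 of 130 in replicate 1, against 56.4%, and 68 of 130 in replicate 2, against 72.9%. Both measures at the gene's own start were below the share of coding genes in both ranked lists. The 40 genes with a ranked but no thresholded summit within 1 kb had top signals of 8.20 to 48.2 with a median of 24.5. The ranked list as a whole had a median of 17.3, and the 9074 coding genes with a ranked summit within 1 kb had a median top signal of 68.9. Of the thresholded list, 622 peaks, or 12.7%, had signals below 48.2. The 40 genes were picked for lacking a thresholded summit, while the 9074 include genes with one, so their medians are not like for like. The median of the 40 was above that of the ranked list. The highest, chosen here after their values were seen, were 48.2 at Lcp9, nearest to egg, 45.2 at the accessory gland gene Acp98AB, nearest to HSPBAP1, and 45.0 at Cpr57A, 106 bp after its own start. Cpr57A had 25.1 and 26.9 in the ranked lists of replicates 1 and 2. For most of the 40 genes the start nearest to this top summit was the gene's own, so Lcp9 and Acp98AB are exceptions. Most of these summits had no counterpart in the ranked list of at least 1 replicate. Some, such as those at TwdlG and TwdlM, had none in either. Clusters held 71 ranked summits, or 256 per Mb, against 341 per Mb of the genome.

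The DNA at the starts differed from that of coding genes in the shares with TATAAA and TATCGA, letters that the rule for choosing the genes did not use. In the 300 bases from 250 before to 50 after the start, TATAAA on either strand was found at 97 of 130 cuticle protein genes (74.6%, 66.5 to 81.3), against 45.8% of all coding genes and 51.8% of short ones. TATCGA was found at 13.8% (8.94 to 20.8), against 27.7% of all coding genes and 25.4% of short ones. Among the coding genes whose start was nearest to a summit, TATAAA was found at 43.2% and TATCGA at 54.1%. The share with TATAAA was thus higher, and that with TATCGA lower, at cuticle protein genes than at the genes nearest to summits. TAATTA, the core that many homeodomains bind, was found at 16.9% of cuticle protein genes (11.4 to 24.3) and 20.4% of coding genes, and GAGAGA at 7.69% (4.23 to 13.6) and 12.3%. Short coding genes had 22.9% and 8.56%. For TAATTA and GAGAGA the interval of the cuticle protein genes contained the share of all coding genes, so no difference is claimed. A match is a run of letters and not a bound site.

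TATAAA stood in the same place in many of these genes. On the gene's own strand and beginning 25 to 40 bases before the start, a place set after the sequences were seen, it was found at 66 of 130 cuticle protein genes (50.8%, 42.3 to 59.2), at 47 of 94 clustered and 19 of 36 isolated ones, against 7.05% of all coding genes and 10.7% of short ones. The DNA before the first or last genes of the 3 largest clusters is shown here, because no summit lies within those clusters. TwdlM, TwdlD, Edg84A and Ccp84Aa have the run in that place, and Cpr65Az has it farther upstream.
Before the start of Cpr65Az (chr3L:6160714-6160813, plus strand): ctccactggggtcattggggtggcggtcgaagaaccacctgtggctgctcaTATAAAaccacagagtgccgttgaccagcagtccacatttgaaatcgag
Before the start of TwdlM (chr3R:26619018-26619117, plus strand): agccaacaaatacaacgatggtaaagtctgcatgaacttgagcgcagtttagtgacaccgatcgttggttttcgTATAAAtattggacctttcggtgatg
Before the start of TwdlD (chr3R:26639925-26640024, plus strand): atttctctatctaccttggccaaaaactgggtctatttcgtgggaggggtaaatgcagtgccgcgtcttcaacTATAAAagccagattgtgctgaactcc
Before the start of Edg84A (chr3R:6684345-6684444, plus strand): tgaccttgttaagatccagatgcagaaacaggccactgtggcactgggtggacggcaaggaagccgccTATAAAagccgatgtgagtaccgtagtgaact
Before the start of Ccp84Aa (chr3R:6703984-6704083, plus strand): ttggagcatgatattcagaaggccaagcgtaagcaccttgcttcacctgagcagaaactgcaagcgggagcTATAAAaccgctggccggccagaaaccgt

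The share with a summit was also lower among other coding genes with TATAAA in that place. Of the 919 coding genes that are not cuticle protein genes and have it, 10.8% had a summit within 1 kb and 31.9% had one in the gene plus 5 kb, against 36.6% and 59.4% of the 12919 without it. Of the 66 cuticle protein genes with it, 0 had a summit within 1 kb and 6 had one in the window (9.09%). Of the 64 without it, 1 had a summit within 1 kb (1.56%) and 5 had one in the window (7.81%). Both window shares of cuticle protein genes were below those of the other coding genes, but they rest on 6 and 5 genes. Whether TATAAA in that place bears on the presence of a summit was not tested. At the summits themselves, TATCGA was found in 6 of the 15 windows of 101 bp (interval 19.8 to 64.3%), against 32.1% of all nuclear summits, and TATAAA in 13.3%, against 12.3%.

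**Figure D5:**
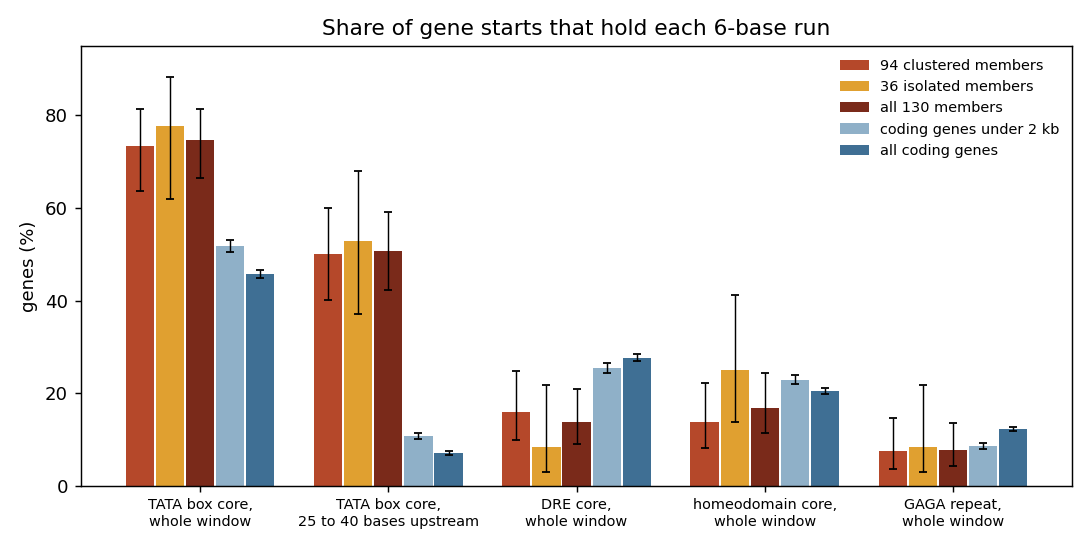
Share of genes (%) whose start holds each 6-base run, in the 300 bases around the start on either strand or, for the second group of bars, on the gene's strand 25 to 40 bases upstream; whiskers are 95% Wilson intervals. The TATA box core (TATAAA) in that place was found at 50.8% of cuticle protein genes, against 7.05% of coding genes, and the DRE core (TATCGA) at 13.8%, against 27.7%.

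Other genes of cuticle formation had summits in shares nearer to those of all coding genes. Of 59 genes chosen from textbook roles, 11 had a summit within 1 kb of the start (18.6%), against 34.6% of all coding genes. In the gene plus 5 kb 31 had one (52.5%), against 57.1%, and 14 had the nearest start (23.7%), against 26.0%. The window count was 13 of 14 for genes of the ecdysone response and cuticle regulators, 9 of 16 for chitin synthesis and assembly, 4 of 10 for apical matrix proteins, 3 of 9 for tanning and 2 of 10 for chitinases and related proteins. Long genes have wider windows: the median length was 8457 bp for the 59 genes and 40792 bp for the 14 regulators, while it was 926 bp for the cuticle protein genes, and lengths were not matched.

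The highest signals within 1 kb were 390 at usp, the partner of the ecdysone receptor, 342 at kkv, the epidermal chitin synthase, and 302 at rtv, a membrane protein needed to organise chitin. Those at usp and rtv had these genes as the nearest start, while the summit near kkv was nearest to CG1172. Cht2, a chitinase, had 220, Gfat2, which begins the synthesis of chitin precursors, had 157, and crc, the ATF4 homologue, had 95.6. The nearest starts of the first 2 of these summits were CG8001 and Moca-cyp. Among the genes with no summit within 1 kb, knk was 8833 bp, obst-A 3533 bp, obst-E 33976 bp and Gasp 92344 bp from the nearest one, and all 4 encode proteins that bind or arrange chitin. All 4 distances lie within the range of those of the cuticle protein genes, 998 to 101431 bp. That range is wide and the 4 were picked for lacking a summit within 1 kb, so this shows no likeness.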

How the data were processed

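Peak lists of 2 biological replicates were used as the authors deposited them, on assembly dm6 per the labels. The peak caller, the aligner and any use of a control remain not given in the sources used here. Per the deposited text descriptions the lists had been thresholded or ranked by IDR, and 7 were used. The authors' signal value per peak was taken as deposited, without rescaling, and of the other columns of the deposited lists the offset of each summit within its peak (bp) and the peak's coordinates were used. Read depth is unknown.

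Genes and transcript starts, transposable elements included, came from Ensembl release 115 (BDGP6.54). A gene's own start is its annotated 5′ end, and the nearest start is that of any transcript. Shares carry 95% Wilson intervals, and no test across genes was made. Assignment was checked on simulated peaks at made-up genes that lay far apart. The choice between close or overlapping starts was not covered by that check. Scripts ran in Python 3.11.15 with numpy 2.4.6.

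The cuticle protein genes, the list of other cuticle genes, the searched letters and the rule for naming genes were chosen with earlier results of these data known. Named were the genes with a summit within 1 kb, those with the highest and lowest signals, the ends of the 5 largest clusters, the genes farthest from a summit and, from the other list, the highest by signal and the first without a summit; the remaining genes with a summit in the window were added.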

Additional observations from a re-analysis of the deposited data

How the results depend on the processing

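Alternatives covered other peak lists, distances, cluster definitions and the removal of the accessory gland genes; the ranked lists of the single replicates and the removal of transposable elements were added after seeing the data. Of 62 values under alternatives, 37 stayed within 1.5 times the main count or, for differences, within the main interval and on the same side of 0, and 1 reversed. The count within 1 kb, 1 in the pooled list, was 0 within 500 bp, against 31.6% of all coding genes. It was 4 within 2 kb (against 39.1%) and 2 for any overlap of the peak (against 35.6%). In the ranked lists of both replicates, replicate 1 and replicate 2 it was 41, 18 and 57, against 65.0%, 57.8% and 69.8%. The count in the gene plus 5 kb, 11, was 6 among the 2000 peaks of highest signal, against 39.5% of all coding genes. It was 7 with 2 kb on either side (against 45.9%) and 29 with 10 kb (against 66.8%). In those ranked lists it was 87, 57 and 116, against 85.1%, 80.4% and 90.9%. The count with the nearest start, 0, was 48, 30 and 68 in them, against 66.0%, 56.4% and 72.9% of all coding genes. It was 1 (Ccp84Aa) when starts of transposable elements were left out, against 26.2%. The difference between clustered and isolated genes within 1 kb, -2.78 percentage points, was -21.7, -15.4 and -16.2 in those ranked lists and 0 within 500 bp. That in the gene plus 5 kb, -15.2, was -35.4 in the ranked list of replicate 1 and reversed to 12.0 in that of replicate 2; under the remaining alternatives it lay between -30.6 and -8.98. With each replicate left out in turn, the thresholded lists gave 0 to 1 within 1 kb, 6 to 8 in the gene plus 5 kb and 0 to 0 for the nearest start, and differences between -14.5 and -8.98 in the gene plus 5 kb and between -2.78 and 0 within 1 kb. The shares of all coding genes in the thresholded lists of the single replicates were 24.6% to 28.3% within 1 kb. They were 46.1% to 49.5% in the gene plus 5 kb and 17.6% to 20.4% for the nearest start. No paired analysis was possible because there was 1 group. The cause of these changes was not tested. The unknown read depth limits what an absent summit shows: weak binding, or binding in a small share of the embryo's cells, may not have been detectable.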
